A study of Mus musculus with 5 samples.

Results

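The nuclear-encoded subunits of the respiratory chain are the proteins of complexes I to V that are read from chromosomes of the nucleus and imported into the mitochondrion. They were taken by symbol from the table of counts: Nduf genes of the a, b, c, s and v series with a number, Ndufab1, Sdha to Sdhd, genes starting with Uqcr, Cyc1, genes starting with Cox4 to Cox8 and genes starting with Atp5. Of 99 matching rows, 11 had -ps in the symbol and 1 was a second row of Atp5o with fewer counts. The remaining 87 genes, of 53700 rows in all, are the members. Complex I has 37 of them, complex II 4, complex III 9, complex IV 20 and complex V 17. Ndufa4, first assigned to complex I, is counted in complex IV.

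Complexes I and II take electrons from NADH and from succinate and pass them to ubiquinone. Complex III hands them to cytochrome c and complex IV to oxygen. Complexes I, III and IV pump protons, and complex V, the ATP synthase, uses the gradient to make ATP. Most subunits are nuclear, while a small set is encoded by mitochondrial DNA. Several subunits of complex IV exist in a common form and a second, tissue-restricted form. Of these Cox4i2, the second form of subunit 4, is known to be raised in low oxygen. Dendritic cells are known to change their balance of respiration and glycolysis when they are activated.

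The members were followed in MutuDC, an established line of mouse dendritic cells that resemble cDC1, the type specialised in cross-presentation. Cells received Fanchinoline, a compound spelled here as in the labels, for 2, 6, 12 or 24 h, and the control library is labelled vehicle and stands at 0 h. The design text instead calls the control untreated and speaks of triplicates, while the count table has 1 column per time point, so the spread between replicates is unknown and 2 libraries are compared with no p-value. Since no library at a later time lacked the compound, exposure and hours in culture cannot be told apart. The labels used here give no dose. A line is 1 cell population, and in bulk RNA fewer cells with a transcript and less of it per cell cannot be told apart.

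The 5 libraries had 33568526 to 42854511 counts. Of 13 cDC1 markers, 12 reached 10 CPM (counts scaled to library size), and the list's summed level was 7616 CPM in vehicle, and 9458, 8341, 7291 and 6948 CPM at 2, 6, 12 and 24 h. B cell, T cell and fibroblast markers summed to 2.20 CPM or less per list and library, and epithelial markers to 7.39 to 10.5 CPM. The list of plasmacytoid dendritic cells, with 2 of 4 markers past 10 CPM, summed to 83.8 to 93.7 CPM. The macrophage list, led by Lyz2 and Cd68, had Mertk at 0 and Adgre1 under 1 CPM. It summed to 641 CPM in vehicle, and 582, 529, 443 and 466 CPM at 2, 6, 12 and 24 h. The part of these shifts in the results was not tested. The vehicle library stood apart by transcript length. Over 8835 annotated genes the log2 ratio of 24 h over vehicle had a Spearman correlation of 0.53 with transcript length, against 0.14 for 24 h over 2 h. Members are short, with a median of 758 bases against 2653 bases for all compared genes. Counts and ratios over vehicle are as measured unless called adjusted, and the value adjusted for transcript length and GC content stands beside those the results turn on. Ratios among treated libraries depended less on length over all genes, but over the 79 compared members 12 h over 6 h had a correlation of -0.295 with length. Over vehicle the members' correlations were 0.324, 0.36, 0.191 and 0.129 at 2, 6, 12 and 24 h.

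Members took a smaller share of all counts in every treated library. The share was 1.29% in vehicle, and 1.17%, 1.16%, 1.15% and 1.12% at 2, 6, 12 and 24 h. By counting error alone these differ, since the 95% exact (Clopper-Pearson) interval was 1.17% to 1.18% at 2 h, the nearest, and 1.28% to 1.29% in vehicle. Complex V held the most, with 0.457% at 24 h and 0.526% in vehicle, and complex IV had 0.197% at 24 h and 0.247% in vehicle. The share of complex II went the other way, with 0.0701% in vehicle and 0.0743%, 0.0780%, 0.0817% and 0.0809% at 2, 6, 12 and 24 h. These shares are not adjusted, and Sdha alone held 10822 of the 23519 counts of complex II in vehicle. Adjusted, the median log2 ratio of its 4 subunits over vehicle was 0.14, 0.18, 0.17 and 0.05 at 2, 6, 12 and 24 h. At 24 h 2 of the 4 lay above vehicle.

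Gene by gene, the vehicle library was the highest of the 5 for 57 of the 79 members that reached 10 CPM in at least 1 library (72.2%), against 33.4% of all 8846 such genes. The 24 h library was the lowest for 37 of the 79 (46.8%), against 29.7% of all. A member counts as higher or lower between libraries if its log2 ratio reached 0.5 in either direction and the 95% exact interval of the ratio of scaled counts excluded 1. This is a rule of size that compares libraries, not a test.

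Against vehicle 11 of 79 members were lower at 2 h (13.9%, against 5.97% of all compared genes) and 12 at 6 h (15.2%, against 6.16%). At 12 h 12 were lower (15.2%, against 8.52%), and at 24 h 19 were (24.1%, against 12.2%). None was higher at any of the 4 times, while 10.5%, 13%, 14.4% and 15.3% of all compared genes were. The median log2 ratio of the members was -0.23, -0.25, -0.24 and -0.33 at 2, 6, 12 and 24 h, against 0.03, 0.04, 0.02 and 0.00 over all compared genes.

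Adjustment for length and GC content removed most of this difference. The members' medians became 0.02, 0.01, 0.00 and -0.04 at 2, 6, 12 and 24 h. Adjusted, no member was lower at 2, 6 or 12 h, where 2.43%, 2.75% and 5.63% of all compared genes were. At 24 h 5 were lower (6.33%, against 8.99%), namely Ndufa10, Ndufa12, Ndufab1, Uqcrb and Atp5g1. None was higher at 2 h (4.66% of all genes), Cox5a was at 6 h (1.27%, against 6.09%), and Ndufv3 and Sdhd were at 12 h (2.53%, against 7.59%) and at 24 h (2.53%, against 9.3%). The adjusted medians of all genes were 0.02, 0.02, 0.00 and -0.02, so that, adjusted, the members as a group lay at the level of all genes and single subunits stood out.

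**Figure D1:**
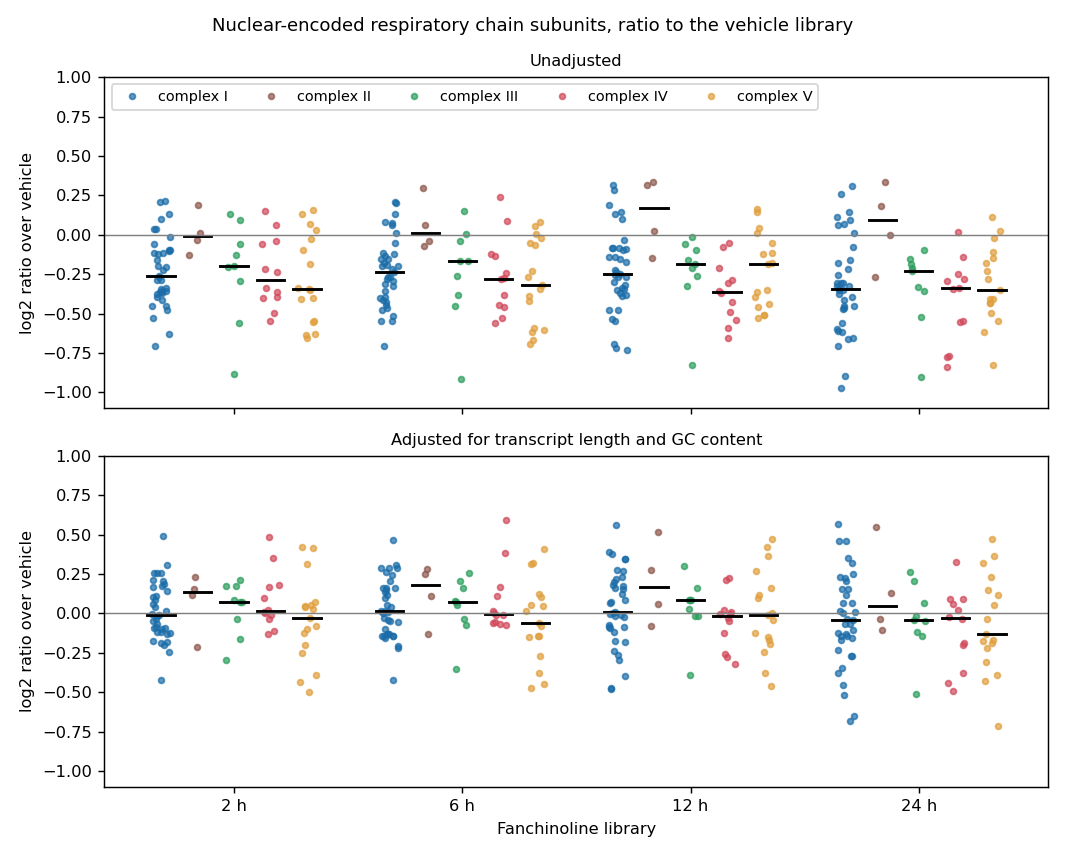
Log2 ratio over the vehicle library (y axis) of the 79 compared subunit genes at 2, 6, 12 and 24 h of Fanchinoline (x axis), coloured by complex, with black bars at the median of each complex, as measured (top) and adjusted for transcript length and GC content (bottom). In the top panel most points lie under 0 in complexes I, III, IV and V and around 0 in complex II, and in the bottom panel the points lie on both sides of 0, with single genes standing out below and above.

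Complex I oxidises NADH in an arm that reaches into the matrix. Its 7 nuclear core subunits, which carry the flavin and the iron-sulfur clusters, lay on both sides of vehicle, with log2 ratios of -0.66 to 0.31 at 24 h and 1 of 7 lower. Adjusted, the range was -0.38 to 0.35 and none was lower. Ndufs1, an iron-sulfur subunit of the NADH-oxidising arm, had 86.2 CPM in vehicle, and 92.5, 99.0, 107 and 107 CPM at 2, 6, 12 and 24 h. It was above vehicle in all 4 treated libraries, by 0.31 (95% interval 0.24 to 0.38) at 24 h (adjusted 0.32).

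Ndufv1, which holds the flavin where NADH is oxidised, had 67.0 CPM in vehicle, and 77.3, 77.4, 74.2 and 69.9 CPM at 2, 6, 12 and 24 h. Ndufv2, the iron-sulfur subunit beside it, had 91.0 CPM in vehicle, and 65.3, 62.3, 65.3 and 57.6 CPM at 2, 6, 12 and 24 h. Ndufv1 lay above vehicle at 2, 6 and 12 h, while its ratio at 24 h, 0.06 (95% interval -0.02 to 0.14), was within counting error of vehicle (adjusted 0.23). Ndufv2 was the core subunit that was lower at 24 h (log2 ratio -0.66, adjusted -0.38).

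Ndufs3, a core subunit of the arm, had 55.6 CPM in vehicle, and 57.1, 59.0, 60.9 and 60.1 CPM at 2, 6, 12 and 24 h. Its log2 ratios over vehicle were 0.04 to 0.13, and adjusted 0.21 to 0.35. Ndufs7, the iron-sulfur subunit next to ubiquinone, had 56.3 CPM in vehicle, and 52.7, 51.6, 46.8 and 44.2 CPM at 2, 6, 12 and 24 h, and Ndufs8, which also carries iron-sulfur clusters, had 109.9 CPM in vehicle, and 95.7, 97.0, 92.5 and 79.3 CPM at 2, 6, 12 and 24 h. These last 2 were lowest at 24 h, with log2 ratios of -0.35 and -0.47 that became 0.07 and -0.17 when adjusted.

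Accessory subunits surround this core and are needed to build or stabilise it. Of the 13 in the Ndufb and Ndufc series, which sit in the membrane arm, 3 were lower at 24 h over vehicle: Ndufb2, Ndufb5 (-0.70, adjusted -0.46) and Ndufc2. Of the other 17, set apart by gene name and not by arm, 5 were lower: Ndufs5, Ndufs6, Ndufa10, Ndufa12 and Ndufab1. Of all compared genes 12.2% were. Adjusted, none of the 13 and 3 of the 17 (Ndufa10, Ndufa12 and Ndufab1) were lower, against 8.99% of all. Ndufa12 had 108 CPM in vehicle, and 81.8, 73.7, 66.7 and 55.0 CPM at 2, 6, 12 and 24 h. It was lower in each library than in the one before, and its ratio at 24 h over vehicle, -0.97 (95% interval -1.05 to -0.90), was the lowest of all compared members as measured (adjusted -0.65).

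Ndufab1, the mitochondrial acyl carrier protein, which also serves fatty acid and lipoic acid synthesis, had 44.6 CPM in vehicle, and 44.2, 44.9, 27.1 and 23.9 CPM at 2, 6, 12 and 24 h. It was level up to 6 h and lower from 12 h, with -0.90 at 24 h over vehicle (adjusted -0.68). Ndufs1 (0.31) and Ndufv3 (0.26), an accessory subunit of the NADH-oxidising arm, had the highest log2 ratios of complex I at that time as measured. Adjusted, the highest were Ndufv3 (0.56), Ndufa2 (0.46) and Ndufa1 (0.46). Ndufb6 and Ndufa13 share 39.0% and 30.0% of their exon bases with a gene on the opposite strand, and since the library kit does not mark strand their counts are uncertain.

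Complex II is succinate dehydrogenase, shared with the citric acid cycle, and it is nuclear-encoded throughout. None of its 4 subunits was higher or lower than vehicle by the rule of size at any time. Sdha, the flavoprotein that oxidises succinate, had 330.1 CPM in vehicle, and 376, 405, 416 and 375 CPM at 2, 6, 12 and 24 h. Sdhb, the iron-sulfur subunit, had 116 CPM in vehicle, and 114, 111, 105 and 96.5 CPM at 2, 6, 12 and 24 h. Sdha was above vehicle in all 4 treated libraries, by log2 ratios of 0.18 to 0.33 (adjusted 0.13 to 0.28). Sdhb had log2 ratios of -0.03 (95% interval -0.10 to 0.03) at 2 h and -0.27 at 24 h, and adjusted it lay between -0.03 and 0.11, above vehicle at 2, 6 and 12 h.

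The membrane anchors differed too. Sdhc had 156 CPM in vehicle, and 143, 152, 159 and 156 CPM at 2, 6, 12 and 24 h, and Sdhd had 115 CPM in vehicle, and 116, 120.1, 143 and 145 CPM at 2, 6, 12 and 24 h. Sdhc had log2 ratios over vehicle between -0.13 and 0.02 (adjusted -0.21 to -0.08), and Sdhd stood above it from 12 h, with a log2 ratio of 0.33 (95% interval 0.28 to 0.39) at 24 h, or 0.55 adjusted. Sdhd was the highest of all compared members at 24 h over vehicle before adjustment.

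Complex III carries electrons through cytochrome b, cytochrome c1 and the Rieske protein. Cyc1, cytochrome c1, had 176 CPM in vehicle, and 188, 196, 169 and 150.1 CPM at 2, 6, 12 and 24 h, highest at 6 h and lowest at 24 h. Uqcrfs1, the Rieske iron-sulfur protein, had 92.7 CPM in vehicle, and 84.7, 82.8, 80.0 and 80.0 CPM at 2, 6, 12 and 24 h. The core proteins, which form the matrix face, followed: Uqcrc1 had 289.8 CPM in vehicle, and 317, 290.3, 259.6 and 231 CPM at 2, 6, 12 and 24 h, and Uqcrc2 had 174 CPM in vehicle, and 167, 169, 162 and 153 CPM at 2, 6, 12 and 24 h. All 4 lay below vehicle at 24 h, by log2 ratios of -0.23, -0.21, -0.33 and -0.19, and adjusted by -0.14 to -0.02.

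The small subunits of complex III held its extremes. Uqcrb, which binds near the ubiquinone site, had 209 CPM in vehicle, and 113, 111, 118 and 112 CPM at 2, 6, 12 and 24 h. It was at about the same lower level in all 4 treated libraries (-0.90, 95% interval -0.95 to -0.85, at 24 h over vehicle, adjusted -0.51), with -0.02 at 24 h over 2 h (adjusted -0.22). Uqcrq was the other lower one, at -0.52 (adjusted -0.12, inside the rule). Uqcr10 (-0.10) and Uqcrh (-0.15), the acidic hinge protein that docks cytochrome c, were closest to vehicle at 24 h as measured. Adjusted, they lay farthest above it in complex III, at 0.26 and 0.21, and Uqcrfs1 was closest.

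Complex IV, cytochrome c oxidase, had 5 of 12 compared subunits lower at 24 h over vehicle: Ndufa4, Cox5b, Cox6a1, Cox7c and Cox8a (12.2% of all compared genes were lower). None of the 12 was higher. Adjusted, none of the 12 was lower either, and their median log2 ratio was -0.03, against -0.34 as measured. Cox4i1, the common form of subunit 4, was the most abundant of them per length, with 1350.1 TPM (counts per transcript length, scaled to the library) at 24 h and 1338 TPM in vehicle, and had 612 CPM in vehicle, and 595, 557, 579 and 514 CPM at 2, 6, 12 and 24 h. Cox5a, which contacts the matrix part of subunit 4, had 75.2 CPM in vehicle, and 83.5, 88.9, 58.7 and 59.5 CPM at 2, 6, 12 and 24 h, and Cox5b, the zinc-binding subunit, had 211 CPM in vehicle, and 219.6, 223, 145 and 124 CPM at 2, 6, 12 and 24 h. As measured, Cox5a and Cox5b were slightly above vehicle at 2 and 6 h and below it at 12 and 24 h. Adjusted, Cox5a was above vehicle by 0.59 at 6 h, past the rule of size, and close to vehicle at 24 h.

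Cox6a1, the liver-type form of subunit 6a, had 332 CPM in vehicle, and 286, 274, 220.2 and 186 CPM at 2, 6, 12 and 24 h. Cox8a, the common form of subunit 8, had 169 CPM in vehicle, and 162, 155, 107 and 98.6 CPM at 2, 6, 12 and 24 h. Their log2 ratios at 24 h over vehicle were -0.84 (95% interval -0.88 to -0.80) and -0.78 (95% interval -0.83 to -0.72), and adjusted they were -0.44 and -0.38. At the other end, Cox7a2 (0.02) and Cox7a2l (-0.14), a relative of subunit 7a that acts in supercomplex assembly, were nearest to vehicle as measured. Adjusted, Cox7a2 was the farthest above it in complex IV, at 0.32, and Cox6b1 (0.02) and Cox5a (-0.02) were nearest. Cox6b1, the common form of subunit 6b, had 194 CPM in vehicle, and 146, 149, 159 and 158 CPM at 2, 6, 12 and 24 h, highest in vehicle.

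The second forms of complex IV subunits were rare, and all 8 members that missed 10 CPM in every library were of this kind. Cox6b2, Cox7b2, Cox8b and Cox8c had 0 counts in all 5 libraries, which allows up to 0.0703 to 0.0915 CPM (3 counts per library). Cox6c2, a copy of Cox6c, had 0.161 to 0.328 CPM. These values lie far below those of the common forms.

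Cox4i2 was near 0 early and present late. It had 0 counts in vehicle, and 2, 0, 13 and 41 counts at 2, 6, 12 and 24 h. Against the 3 counts that a count of 0 allows, its level was at least 10.5-fold higher at 24 h than in vehicle and at least 13.6-fold higher than at 6 h. It still reached only 0.960 CPM, beside 514 CPM of Cox4i1 in the same library. Cox6a2, the muscle-type form of subunit 6a, had 153 counts in vehicle, and 109, 130, 101 and 38 counts at 2, 6, 12 and 24 h. That is 0.890 CPM at 24 h against 4.67 CPM in vehicle. With the prior count of 2 added, the level was 0.200-fold that of vehicle, and the log2 ratio of 24 h over 12 h was -1.53 (95% interval -2.17 to -1.04). Cox6a2 and Cox6a1 were thus both lowest at 24 h. Cox7a1, the muscle-type form of subunit 7a, had 1.34 CPM in vehicle, and 1.13, 0.966, 1.35 and 1.92 CPM at 2, 6, 12 and 24 h, highest at 24 h.

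**Figure D2:**
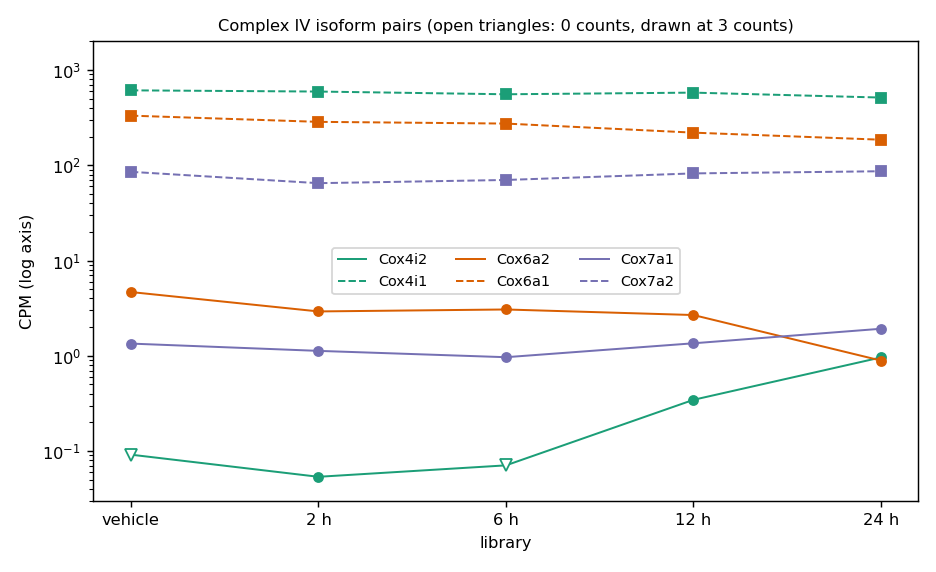
Scaled counts (CPM, log axis) of the second (solid lines, circles) and common (dashed lines, squares) forms of complex IV subunits 4, 6a and 7a in the vehicle library and after 2, 6, 12 and 24 h, with open triangles for 0 counts drawn at the level of 3 counts. At 24 h Cox4i2 is at its highest, 0.960 CPM, and Cox6a2 at its lowest, 0.890 CPM, while the common forms lie between 64.9 and 612 CPM.

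Complex V makes ATP in its F1 head. Atp5b, the catalytic beta subunit, was the most abundant member per length, with 1416 TPM at 24 h and 1434 TPM in vehicle, and had 1687 CPM in vehicle, and 1658, 1627, 1556 and 1388 CPM at 2, 6, 12 and 24 h. Atp5a1, the alpha subunit, had 1010.4 CPM in vehicle, and 1058, 1051, 1019 and 892 CPM at 2, 6, 12 and 24 h. Both were lowest at 24 h, with log2 ratios of -0.28 and -0.18 over vehicle (adjusted -0.19 and -0.17). Atp5d, the delta subunit of the central stalk, had 177 CPM in vehicle, and 166, 169, 124 and 99.9 CPM at 2, 6, 12 and 24 h, and at -0.82 (95% interval -0.88 to -0.77) was the lowest of complex V at 24 h over vehicle as measured (adjusted -0.43). Atp5e, the epsilon subunit that sits beside it, had 47.5 CPM in vehicle, and 52.0, 46.9, 53.1 and 51.4 CPM at 2, 6, 12 and 24 h and the highest ratio of the complex at 24 h over vehicle, 0.11 (adjusted 0.47, also the highest).

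The peripheral stalk keeps the head from turning. All 4 of its members (Atp5pb, Atp5h, Atp5j and Atp5o) were below vehicle at all 4 times, with a median log2 ratio of -0.59, -0.60, -0.48 and -0.52 at 2, 6, 12 and 24 h. Atp5pb, subunit b, had 341 CPM in vehicle, and 216, 224, 237 and 234 CPM at 2, 6, 12 and 24 h. Among treated libraries the stalk was level, with a median of 0.02 at 24 h over 2 h. Adjusted, its medians over vehicle were -0.34, -0.32, -0.21 and -0.26, so the 4 genes stayed below vehicle but none was lower by the rule. Atp5o shares 35.6% of its exon bases with a gene on the opposite strand.

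The ring that turns with the proton flow is built of subunit c, which 3 genes encode as the same mature protein. Atp5g1 had 149.7 CPM in vehicle, and 131, 128, 132 and 113 CPM at 2, 6, 12 and 24 h. Atp5g2 had 199.5 CPM in vehicle, and 222, 211, 205 and 180.1 CPM at 2, 6, 12 and 24 h, and Atp5g3 had 179 CPM in vehicle, and 182, 179.9, 198 and 182 CPM at 2, 6, 12 and 24 h. Atp5g1 was below vehicle at every time, while Atp5g3 had log2 ratios of 0.01 to 0.14 (adjusted 0.31 to 0.42). The adjusted ratio of Atp5g1 at 24 h, -0.71, rests on an annotated transcript of 4660 bases and was -0.41 as measured. Adjusted, Atp5g1 was the lowest of all compared members at 24 h over vehicle.

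Among the treated libraries, most subunits stayed inside the rule of size and a few stepped down between 6 and 12 h. No member was higher or lower at 6 h over 2 h (1.27% and 0.486% of all compared genes) or at 24 h over 12 h (0.904% and 0.418%). At 12 h over 6 h 4 members were lower (5.06%, against 1.49% of all compared genes) and none was higher (0.769% of all), with a members' median of 0.06 against -0.01 over all genes. The 4 were Ndufab1 at -0.73 (95% interval -0.84 to -0.62), Cox5b at -0.63 (95% interval -0.68 to -0.58), Cox5a at -0.60 (95% interval -0.67 to -0.52) and Cox8a at -0.54 (95% interval -0.59 to -0.48).

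So 3 of the 4 belong to complex IV, and between 2 and 6 h none of them had moved by more than Cox5a, at 0.09. The next lowest were Ndufb2 (-0.45), Atp5d (-0.44) and Cox6a1 (-0.32), none of which reached the limit. Adjusted for length and GC content, 3 of the 4 were lower (3.8%, against 1.11% of all), and Cox8a lay at -0.48. Ratios of 12 h over 6 h also moved with GC content, with a Spearman correlation of -0.37 over the 79 members and -0.35 over all compared genes.

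The promoters of the 4 genes are printed to show what lies at their starts. Those of Cox6a1, which fell with time, and Sdhd, which stood above vehicle late, were added because both hold the NRF1 motif given below. Their matches are therefore a reason for the choice and not a result. The printed stretches run from 250 bases before to 30 bases after the RefSeq start on GRCm38.p6, along the gene's own strand. Capitals mark GCGC, any base, T and GCGC in a row (the NRF1 motif), CCGGAAG (an ETS motif, bound by the GABP factor), AAGATGGCG (a YY1 motif) and ACGTG (the core of the hypoxia response element), on either strand.
Ndufab1 lies at chr7:122101819-122102098 on the minus strand and Cox5b lies at chr1:36691237-36691516 on the plus strand. Cox5a lies at chr9:57520982-57521261 on the plus strand and Cox8a lies at chr19:7217587-7217866 on the minus strand. Cox6a1 lies at chr5:115348929-115349208 on the minus strand and Sdhd lies at chr9:50603820-50604099 on the minus strand.
Ndufab1: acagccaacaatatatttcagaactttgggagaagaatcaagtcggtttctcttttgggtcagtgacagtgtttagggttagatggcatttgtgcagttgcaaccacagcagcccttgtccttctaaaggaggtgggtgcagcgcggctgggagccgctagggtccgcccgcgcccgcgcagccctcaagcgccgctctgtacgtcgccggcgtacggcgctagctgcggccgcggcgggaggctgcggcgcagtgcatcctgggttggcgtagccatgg
Cox5b: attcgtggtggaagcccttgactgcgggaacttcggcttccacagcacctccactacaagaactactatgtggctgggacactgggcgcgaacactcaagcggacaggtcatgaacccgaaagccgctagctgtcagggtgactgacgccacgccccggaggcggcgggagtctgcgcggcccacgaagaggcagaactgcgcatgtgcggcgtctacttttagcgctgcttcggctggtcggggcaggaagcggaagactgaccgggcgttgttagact
Cox5a: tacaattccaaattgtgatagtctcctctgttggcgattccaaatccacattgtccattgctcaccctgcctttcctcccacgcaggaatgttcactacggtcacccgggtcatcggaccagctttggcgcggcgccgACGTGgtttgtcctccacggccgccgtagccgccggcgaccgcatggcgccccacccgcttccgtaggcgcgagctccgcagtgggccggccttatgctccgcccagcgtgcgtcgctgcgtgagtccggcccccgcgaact
Cox8a: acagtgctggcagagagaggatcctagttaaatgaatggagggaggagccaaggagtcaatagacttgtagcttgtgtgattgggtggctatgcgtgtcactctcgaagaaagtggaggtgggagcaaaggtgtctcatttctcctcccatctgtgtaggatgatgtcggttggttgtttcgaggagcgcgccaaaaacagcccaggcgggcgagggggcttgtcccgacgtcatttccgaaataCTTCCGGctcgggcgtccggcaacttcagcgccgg
Cox6a1: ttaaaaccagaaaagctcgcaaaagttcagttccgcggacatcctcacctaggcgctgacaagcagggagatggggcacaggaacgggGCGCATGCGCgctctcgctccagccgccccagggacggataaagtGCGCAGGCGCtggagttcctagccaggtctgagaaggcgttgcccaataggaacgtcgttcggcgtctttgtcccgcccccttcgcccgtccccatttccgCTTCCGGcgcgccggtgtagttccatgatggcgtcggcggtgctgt
Sdhd: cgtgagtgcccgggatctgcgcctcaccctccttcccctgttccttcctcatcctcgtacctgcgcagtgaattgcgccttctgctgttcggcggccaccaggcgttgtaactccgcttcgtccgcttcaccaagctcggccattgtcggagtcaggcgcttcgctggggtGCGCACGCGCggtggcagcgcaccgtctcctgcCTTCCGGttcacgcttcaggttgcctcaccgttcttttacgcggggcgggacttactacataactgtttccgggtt

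In these windows Cox6a1 held the NRF1 letters starting at bases -162 and -117 and Sdhd at -79, and both held the ETS letters, at -16 and -46. Cox8a held the ETS letters at -5 and, past the printed stretch, at 33, and Cox5a the ACGTG core at -112. Ndufab1 and Cox5b held none of the 4 motifs. Over the full windows of 300 bases, which reach 50 bases past the start, 66 compared members had 71 windows. Of these 71, the NRF1 letters were in 25.4%, against 4.6% of all 32851 windows of the table. The shares were 23.9% against 8.86% for ETS, 9.86% against 1.4% for YY1 and 23.9% against 19.6% for ACGTG. The windows of the table cover 27025 genes, compared here or not. Shares over the compared genes alone were not taken, so the gaps are not shown to be particular to the subunits. The ETS motif ends in the 3 letters that begin the YY1 motif, so these 2 can overlap. A match is a string of letters and not a bound site, and the lack of one says nothing about the factor.

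From 2 to 24 h, 7 members were lower (8.86%, against 6% of all compared genes) and 1 was higher (1.27%, against 6.04%). The 4 lowest as measured were Ndufab1 (-0.88), Ndufb2 (-0.83, 95% interval -1.04 to -0.63), Cox5b (-0.83, 95% interval -0.88 to -0.78) and Atp5d (-0.73, 95% interval -0.79 to -0.67). Cox8a (-0.72), Cox6a1 (-0.62) and Ndufa12 (-0.57) completed the 7. Ndufb2, an accessory subunit of the membrane arm, was a low gene with 11.6 CPM in vehicle, and 13.4, 12.7, 9.28 and 7.54 CPM at 2, 6, 12 and 24 h. It missed the 10 CPM minimum at 12 and 24 h, so it entered the comparison through earlier libraries where it was higher.

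The 4 highest at 24 h over 2 h, as measured, were Ndufv3 (0.52, 95% interval 0.43 to 0.61), Ndufa1 (0.47), Cox7a2 (0.42) and Uqcrh (0.41), of which Ndufv3 passed the rule of size. Ndufv3 had 53.0 CPM in vehicle, and 44.1, 51.0, 64.7 and 63.4 CPM at 2, 6, 12 and 24 h, and Uqcrh had 122 CPM in vehicle, and 82.9, 89.1, 107 and 109.9 CPM at 2, 6, 12 and 24 h. Ndufa1, Cox7a2 and Uqcrh were lowest at 2 h and lay between -0.15 and 0.10 of vehicle at 24 h. Adjusted, their log2 ratios over vehicle were 0.06, -0.13 and -0.16 at 2 h and 0.46, 0.32 and 0.21 at 24 h. As measured, Ndufv3 was lowest at 2 h and above vehicle at 12 and 24 h. Adjusted, its log2 ratio over vehicle was -0.001 at 2 h, 0.24 at 6 h and 0.56 at both 12 and 24 h. The 5 small membrane subunits of complex V were also all above their 6 h level at 12 h (median 0.21, adjusted 0.18), with none past the rule.

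Adjusted, 6 members were lower at 24 h over 2 h (7.59%, against 5.04% of all), with Cox5a in and Cox6a1 and Atp5d out, and 1 was higher (1.27%, against 4.34%). Ratios of 24 h over 2 h had a Spearman correlation with GC content of -0.38 over the 79 members and -0.42 over all compared genes. Its part in the single ratios was not tested beyond this adjustment. Over the same 2 libraries 5 of 12 compared cDC1 markers (median -0.35) and 3 of 4 compared macrophage markers (median -0.56) were lower, and the part of this in the members' ratios was not tested.

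**Figure D3:**
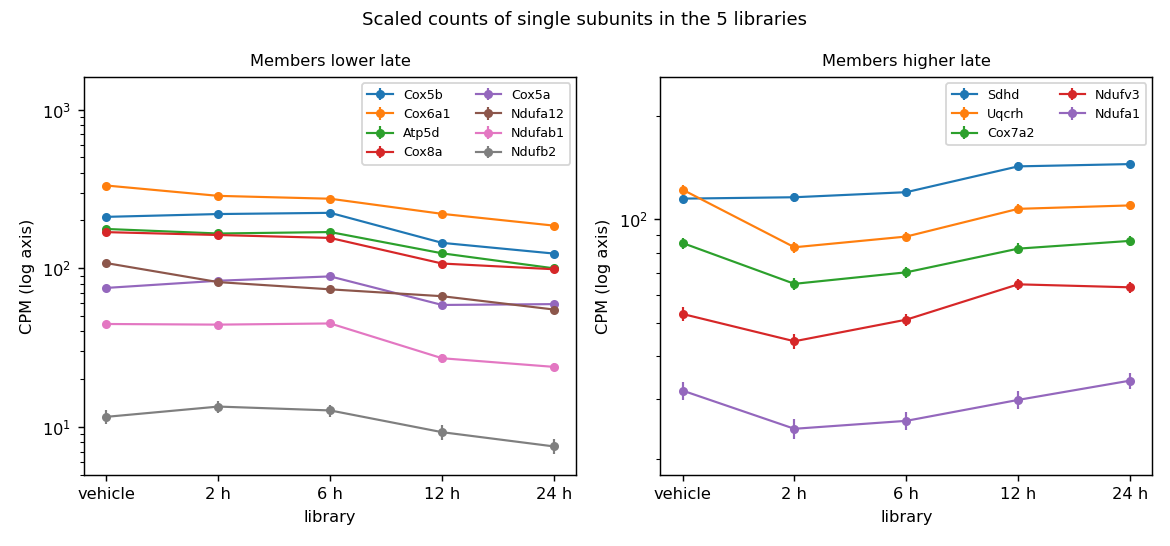
Scaled counts (CPM, log axis) of 8 subunits that were lower late (left) and 5 that lay above their 2 h level at 24 h (right) in the vehicle library and after 2, 6, 12 and 24 h, with 95% counting error as bars. By the rule of size Ndufv3 alone was higher at 24 h than at 2 h, and no member was higher than vehicle as measured. On the left Cox5b, Cox5a, Cox8a and Ndufab1 step down between 6 and 12 h while Ndufa12 declines throughout, and on the right 4 of the 5 lines dip at 2 h, Sdhd being level.

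**Figure D4:**
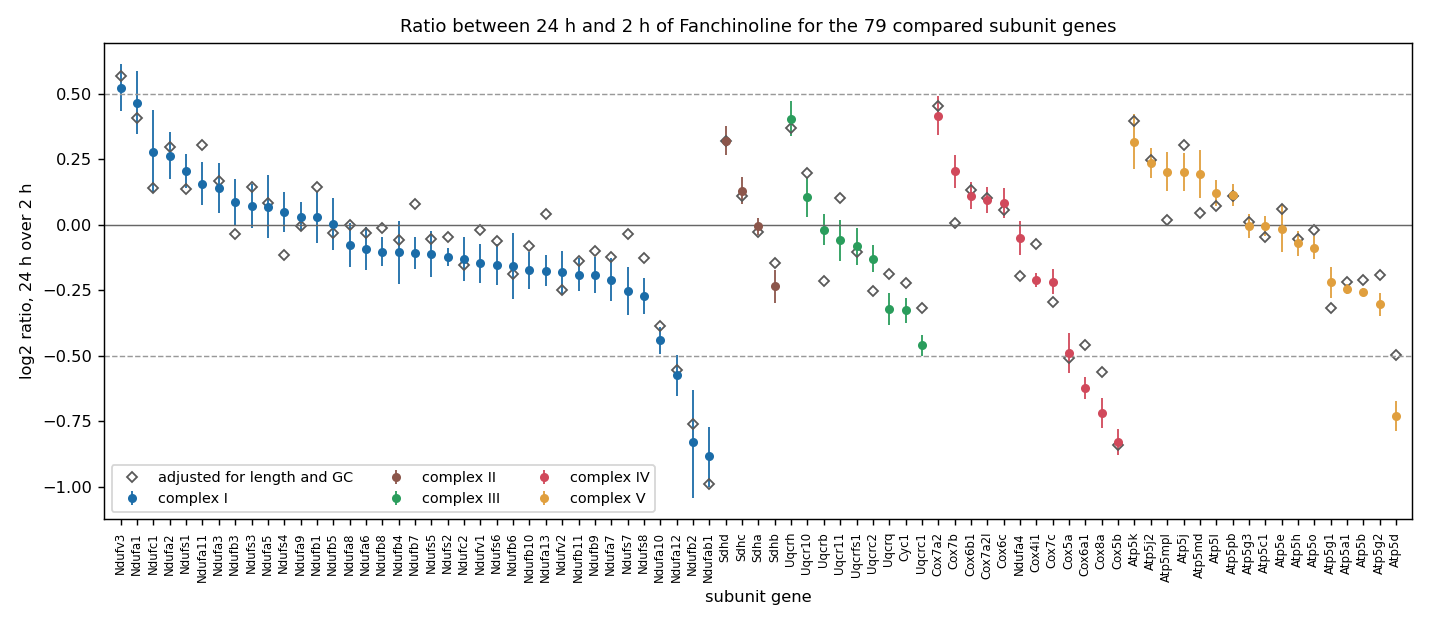
Log2 ratio of 24 h over 2 h (y axis) for the 79 compared subunit genes (x axis), sorted within complexes I to V, with 95% counting intervals as bars, the values adjusted for length and GC content as open diamonds and the size rule of 0.5 as dashed lines. Most genes lie between the dashed lines, and the low tail holds Ndufab1, Ndufb2 and Ndufa12 in complex I, Cox5b, Cox8a and Cox6a1 in complex IV and Atp5d in complex V.

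A trend over time was fitted as a line against log2(hours + 1) through the 5 libraries and tested by edgeR's quasi-likelihood method, which takes the scatter around the line as its error. Of 83 members tested, 5 fell (6.02%, against 3.86% of 13915 genes) at a Benjamini-Hochberg adjusted p threshold of 0.05. They were Ndufa12 (adjusted p = 0.0179), Cox6a1 (0.0251), Cox7c (0.0425), Cox8a (0.0428) and Ndufa10 (0.0470). Their slopes were -0.20, -0.17, -0.12, -0.18 and -0.12 log2 units per unit of log2(hours + 1). Ndufa10, an accessory subunit of complex I, had 196 CPM in vehicle, and 176, 172, 154 and 129 CPM at 2, 6, 12 and 24 h. Cox7c, a small subunit of complex IV, had 242 CPM in vehicle, and 191, 178, 172 and 165 CPM at 2, 6, 12 and 24 h. Both were lower in each library than in the one before. Cox4i2 alone rose (1.2%, against 5.15% of all), with an adjusted p of 0.0276 on counts of 0 to 41. Cox6a2 did not pass (adjusted p = 0.0716).

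These calls changed when single libraries were left out. Without the 12 h library no gene of the table fell or rose by edgeR, and so no member did. Without the 24 h library no member did either, beside 3 falling and 38 rising of 13654 genes in all. With so few genes passing, the lack of members in these fits does not set them apart. In the same order, 18 and 20 members had an unadjusted p under 0.05. Without the vehicle library, over the 4 treated ones, 10 fell (12%, against 7.67% of all genes) and 7 rose (8.43%, against 8.01%). Those that fell were Ndufa10, Ndufa12, Ndufab1, Ndufb2, Uqcrc1, Cox5a, Cox5b, Cox6a1, Cox8a and Atp5d, and those that rose were Ndufv3, Ndufa1, Sdhd, Uqcrh, Cox4i2, Cox7a2 and Atp5k. Cox7c thus fell with the vehicle library in the fit and had an adjusted p of 0.119 without it. Without the 2 h library 13 fell (5.66% of all genes) and 1 rose (9.31% of all). Without the 6 h library 4 fell, beside 137 of 13716 genes in all. Ndufa10 (adjusted p = 0.0830, edgeR) and Cox7c (0.0922) did not pass there. Testing 24170 genes with no filter on low counts, no gene passed, while 32 members had an unadjusted p under 0.05. With offsets for length and GC content 10 fell (12%, against 5.96% of all genes) and 2 rose (2.41%, against 5.02%). DESeq2's Wald test had 18 members falling (9.56% of all genes) and 0 rising (11.3% of all). It had 34 members at an unadjusted p under 0.05 and gave Cox4i2 no adjusted p. The share of all genes at an unadjusted p under 0.05 was not taken, so these member counts cannot be set against all genes.

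Genes that work with the members were described from lists written from textbook knowledge. The lists were written with earlier results of these data known, so their counts are not independent of the data. Cycs, cytochrome c, which carries electrons from complex III to IV, had 262 CPM in vehicle, and 158, 154, 163 and 136 CPM at 2, 6, 12 and 24 h. Its log2 ratio at 24 h over vehicle was -0.95 (-0.98 adjusted), and it fell with time (edgeR, adjusted p = 0.0440). It was the only one of 10 compared genes of the carriers and of ubiquinone synthesis past the rule at 24 h. Assembly factors were lower for 8 of 43 and higher for 1 of 43 at 24 h over vehicle, with a median of -0.25 against 0.00 over all genes (12.2% lower and 15.3% higher). Adjusted, 5 of 43 were lower and 1 higher (8.99% and 9.3% of all), with a median of -0.15 against -0.02.

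The lower assembly factors included Ndufaf4 (-0.86, adjusted -0.97), Ndufaf5 (-1.01, adjusted -0.77) and Ndufaf6 (-1.05, adjusted -0.81), which build complex I, and Ttc19 (-0.91, adjusted -0.84), which acts on complex III. These 4 also fell with time (adjusted p = 0.0323, 0.0250, 0.0243 and 0.0248, edgeR). They were low genes, with 5.13 to 9.07 CPM at 24 h against 10.6 to 16.5 CPM in vehicle. They entered the comparison through libraries where they were higher, since at 24 h they missed the 10 CPM minimum. A gene as low throughout would not have been compared, so for such genes the minimum favours lower ratios at 24 h. The higher one was Higd1a, a complex IV factor induced by hypoxia, with 27.1 CPM in vehicle, and 26.3, 52.6, 86.1 and 88.7 CPM at 2, 6, 12 and 24 h.

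Higd1a also belongs to a list of 7 genes of the hypoxic switch of the chain, on which Cox4i2 is the member. Of 5 compared, 4 were higher and 1 was lower at 24 h over vehicle (15.3% and 12.2% of all genes), and adjusted 3 were higher and none lower (9.3% and 8.99%). Pdk1, which inhibits pyruvate dehydrogenase, had a log2 ratio of 1.85 (adjusted 1.49), Bnip3, a mitophagy receptor, 2.27 (adjusted 2.45), and Lonp1, the matrix protease, 0.52 (adjusted 0.49). Iscu, the iron-sulfur scaffold, was at -0.60 (adjusted -0.33). Ndufa4l2, the hypoxic relative of Ndufa4, had at most 0.107 CPM in any library. Cox4i2, Higd1a, Pdk1 and Bnip3 all rose with time in edgeR's trend test (adjusted p = 0.0276, 0.0209, 0.0179 and 0.0250).

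Of the regulators of respiratory genes, 13 were compared, with 1 higher (Gabpb2, a GABP subunit, 1.27, adjusted 0.69) and 1 lower (Slirp, an RNA-binding protein, -0.53, adjusted -0.21) at 24 h over vehicle, beside 15.3% and 12.2% of all genes. Adjusted, Gabpb2 was higher and Yy1 (-0.53) and Pprc1 (-0.54) were lower, beside 9.3% and 8.99% of all. Nrf1, the activator whose motif was searched, had 58.2 CPM in vehicle, and 61.9, 61.3, 63.5 and 62.6 CPM at 2, 6, 12 and 24 h. Gabpa had 36.1 CPM in vehicle, and 38.6, 39.7, 45.4 and 42.0 CPM at 2, 6, 12 and 24 h. The coactivator genes Ppargc1a and Ppargc1b were listed at 0 in all 5 libraries.

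Of the 13 subunits encoded by mitochondrial DNA, 12 lay below vehicle at 24 h, or 11 adjusted. By the rule of size 9 were lower and 1, mt-Nd4l (0.65, adjusted 1.08), was higher, against 12.2% and 15.3% of all genes. Adjusted, 3 were lower and 1 was higher, against 8.99% and 9.3%. Their median was -0.64 (-0.32 adjusted), against -0.33 (-0.04 adjusted) for the nuclear members. At 12 h over 6 h all 13 were above 0 with a median of 0.28, or 11 of 13 with 0.05 adjusted, against 0.06 (0.04 adjusted) for the nuclear members. At 24 h over 2 h all 13 were above 0 with a median of 0.23, but adjusted 4 of 13 were and the median turned to -0.16. These RNAs were counted after selection for poly-A, and the difference between the sets was not tested.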

How the data were processed

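The authors deposited raw counts per gene for the 5 libraries, 1 column each. Per the labels' protocols, poly-A RNA from TRIzol extracts went through the TruSeq RNA kit v2. The submitters' processing notes name Trim Galore and HISAT2 and, as build, GRCm38. Versions, the program that counted, its use of strand and its handling of reads with several matches are unknown here. Members and lists were chosen with earlier results of these data known.

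From the counts, edgeR 4.0.16 (R 4.3.3, limma 3.58.1) gave TMM-scaled CPM and log2 ratios with a prior count of 2. The 8846 genes that reached 10 CPM in 1 or more libraries were compared by the rule of size, and at 10 CPM a gene had 328 to 427 counts. Intervals and the floor of 3 counts reflect counting alone: PCR copies without molecular identifiers are no independent molecules. The adjustment took residuals from natural splines (4 degrees of freedom each) of transcript length and GC content, using GENCODE M21 on GRCm38, which held 8835 of the compared genes. TPM used the same transcript lengths. The slope test kept genes by filterByExpr (13915), had 3 residual degrees of freedom and adjusted over all of them. DESeq2 1.42.0 was an alternative. Named in full were core subunits (1 is not reported here), isoform families and the extremes of each complex and of 24 h over 2 h, and a few more were named after their values were seen. Of 87 members, 4 were at 0 throughout. Rows with -ps summed to 632 counts. The 5 compared members that share exon bases with a gene on the same strand did so for at most 20% of them, and 3 of 27 shared more than 20% on the opposite strand.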

Additional observations from a re-analysis of the deposited data

How the results depend on the processing

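Adjustment for length and GC content turned the members' median over vehicle from below to above 0 at 2 h (0.0161), 6 h (0.0146) and 12 h (0.0035), and to -0.038 at 24 h. With each gene's longest transcript, an alternative chosen after the data were seen, it was 0.0395, 0.0435, 0.0394 and -0.0023. Lower members were then 0, 0, 0 and 5, or 0, 0, 1 and 4 with the longest transcript, and higher ones 0, 1, 2 and 2, or 1, 1, 1 and 2. Atp5mpl at 2 h over vehicle turned to 0.0385. A log2 ratio of 1 as the limit left 0 members in every comparison, among them 12 h over 6 h, whose alternatives were added after the values were seen. At that limit 109 of 8846 compared genes were lower and 253 higher at 24 h over vehicle. At 12 h over 6 h 22 were lower and 5 higher. So few genes passed that 0 members says little about the members. With no CPM minimum 1 member was higher at 12 h and at 24 h over vehicle, 1 at 12 h over 6 h and 3 at 24 h over 2 h. DESeq2 size factors kept each of these counts within 1.5 times. All-gene counts are not given for the longest transcript, for no CPM minimum or for these size factors. The member counts there cannot be set against all genes. For the time trend, DESeq2 gave 18 falling and 0 rising members. Testing all 24170 genes without a filter gave 0 and 0, with 32 members at an unadjusted p under 0.05 (share of all genes not taken). Length and GC offsets gave 10 and 2. Leaving out 1 library at a time gave 0 to 13 falling and 0 to 7 rising. Among single members, the adjustment moved 52 values inside the limit and 7 past it. No paired analysis was possible because each time point has 1 library. Depth limits mainly the second complex IV isoforms.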
